A study of Mus musculus with 57 samples.

Results

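Interferon-stimulated genes are the genes a cell switches on when it senses interferon. A set of 34 such genes was followed by symbol through the count tables of 2 mouse heart studies, with 25416 genes listed for the acute and 54658 for the chronic study. All 34 are listed in both, and with the counts as deposited all passed the filter on low counts in both, so no member was lost. They fall into 19 genes driven mainly by type I interferon (Isg15, Ifit1, Ifit2, Ifit3, Irf7, Irf9, Stat2, Oasl2, Oas1a, Usp18, Rsad2, Bst2, Ifi44, Ifi27l2a, Ifih1, Ddx58, Dhx58, Xaf1 and Zbp1), 8 interferon-inducible GTPases (Gbp2, Gbp3, Gbp4, Gbp5, Gbp7, Igtp, Irgm1 and Irgm2), 5 genes of class I antigen presentation (Tap1, Tap2, B2m, H2-K1 and H2-D1), and Irf1 and Cxcl10, which answer to both type I and type II interferon.

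Hearts of wild type (WT) male C57BL6/J mice were collected in both studies, each library being a numbered replicate heart of its group. In the acute study 14 Ctrl mice were given saline, 13 Doxo mice a single i.p. dose of 20 mg/kg doxorubicin (an anthracycline that damages the heart), and 13 Doxo-NMN mice that dose with 180 mg/kg/day nicotinamide mononucleotide (NMN, a precursor of NAD+) by i.p. injection from 5 days before, with hearts taken on day 5. Mice were 9 weeks old when bought for this study. In the chronic study, with mice injected at 14 to 16 weeks of age, 5 Ctrl mice were given PBS, 6 Doxo mice 5 injections of 4 mg/kg, and 6 Doxo-NMN mice those injections with 500 mg/kg/day NMN in the drinking water from 5 days before, and hearts were taken on day 60 after the first injection. Levels are given as CPM, the counts scaled to the normalized library total, and differences as edgeR log2 fold changes ± SE with Benjamini-Hochberg adjusted p-values, so that every value after rose by or fell by, and every value with an SE or an adjusted p, is a log2 fold change. Counts of calls needed an adjusted p under 0.05 and, in the acute study, also a 1.5-fold change or more, unless given without the cutoff on size. Where the call of a single member is said to hold or be lost, it is by an adjusted p under 0.05 alone. The p-values measure the spread between these hearts, and the sources do not say whether any mice shared a litter. Hearts came only from mice alive at collection, and no group was given NMN without doxorubicin. In the acute study the paper reports lower survival in Doxo than in Ctrl or Doxo-NMN mice. In the chronic study it also reports reduced survival with doxorubicin, while its survival difference between Doxo and Doxo-NMN mice was not significant. The part of survival in the differences between groups was not tested.

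Type I interferons signal through the receptor IFNAR, whose kinases activate a complex with STAT2 and IRF9 that binds the interferon-stimulated response element (ISRE). Interferon gamma signals through its own receptor to a different element, the gamma-activated site (GAS), and induces IRF1, the GTPases and the class I genes. The 19 type I genes encode signalling factors, regulators, sensors of foreign nucleic acid and effectors that block viral replication, the GTPases attack the membranes around intracellular microbes, and the class I genes carry peptides to the cell surface for T cells to read. Heart cells keep a low basal level of all of these without infection.

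The ISRE is visible in the promoters of members that later went in opposite directions, which is why the following stretches are shown. They are the 160 bases before the RefSeq transcription start on GRCm38.p6, written 5′ to 3′ on the strand of the gene, with matches to the ISRE core GAAANNGAAA or to its other strand TTTCNNTTTC in capitals. Ifit1 (chr19:34640729-34640888, plus strand) and Ifit3 (chr19:34583369-34583528, plus strand) were higher in acute Doxo hearts, Oas1a (chr5:120907526-120907685, minus strand) and Bst2 (chr8:71537473-71537632, minus strand) were lower, and Isg15 (chr4:156200819-156200978, minus strand), Igtp (chr11:58199396-58199555, plus strand) and B2m (chr2:122147527-122147686, plus strand) did not pass the test there.
Ifit1: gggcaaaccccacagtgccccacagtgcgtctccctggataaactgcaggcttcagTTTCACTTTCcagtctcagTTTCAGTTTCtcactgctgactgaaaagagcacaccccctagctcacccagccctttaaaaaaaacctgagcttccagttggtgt
Ifit3: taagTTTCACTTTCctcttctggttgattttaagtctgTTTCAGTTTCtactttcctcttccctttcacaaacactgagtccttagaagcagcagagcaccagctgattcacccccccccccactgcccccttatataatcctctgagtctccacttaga
Oas1a: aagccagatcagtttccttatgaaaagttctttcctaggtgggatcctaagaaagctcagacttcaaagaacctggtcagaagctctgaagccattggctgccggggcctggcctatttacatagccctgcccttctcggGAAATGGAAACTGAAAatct
Bst2: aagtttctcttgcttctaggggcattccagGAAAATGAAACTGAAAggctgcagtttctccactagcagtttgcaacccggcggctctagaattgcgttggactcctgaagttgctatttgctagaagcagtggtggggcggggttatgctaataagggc
Isg15: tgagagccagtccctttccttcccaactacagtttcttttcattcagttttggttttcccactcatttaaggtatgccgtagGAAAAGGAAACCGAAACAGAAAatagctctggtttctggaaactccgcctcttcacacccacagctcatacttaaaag
Igtp: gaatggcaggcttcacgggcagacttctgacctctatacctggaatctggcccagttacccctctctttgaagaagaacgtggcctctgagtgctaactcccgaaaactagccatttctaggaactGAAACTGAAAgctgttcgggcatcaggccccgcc
B2m: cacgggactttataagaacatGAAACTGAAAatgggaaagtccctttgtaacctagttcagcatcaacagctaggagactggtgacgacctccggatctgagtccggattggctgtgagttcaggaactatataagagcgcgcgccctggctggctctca

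RefSeq promoter entries were matched for 28 of the 34 members, in 33 windows, with no entry for Usp18, Ifi27l2a, Dhx58, Zbp1, Gbp4 and Tap2. Within 250 bases before the start, the ISRE core was found in at least 1 window of 16 members, namely 7 of 15 type I genes (Bst2, Ifit1, Ifit3, Isg15, Oas1a, Rsad2 and Stat2), 7 of 7 GTPases, B2m alone of 4 antigen presentation genes, and Cxcl10. Of all 32851 RefSeq promoter windows of this length, 2.98% held it. In Isg15, Oas1a and Bst2 neighbouring matches share a GAAA. A GAS-like palindrome, TTCNNNGAA, was present in 7.02% of all windows and in 8 members, namely Bst2, Ifit2, Oas1a, Gbp5, Gbp7, Igtp, Irgm2 and Irf1, and in Bst2 it overlaps an ISRE match. A match of letters is not a site shown to be bound, and a window without a match says nothing about control from elsewhere.

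Depth was high enough to read most members, while Cxcl10 fell under 3 counts in some acute hearts. Hearts had 32409622 to 52102850 counts in the acute and 17769886 to 23862287 in the chronic study. Thus 3 counts equal 0.0576 to 0.0926 CPM and 0.126 to 0.169 CPM, a limit for counting error only. Low acute counts were mostly even (a median of 73.6% of counts from 1 to 20), so that 2 acute counts may stand for 1 fragment, in which case the acute limit is higher than given and small acute counts rest on fewer fragments. The cause was not tested. A few hearts stand apart. Acute Doxo heart 5 was the highest Doxo heart for 28 of the 34 members. Acute Doxo heart 6 lay at 0.03 on a scale over all tested genes where the mean Ctrl heart is at 0 and the mean Doxo heart at 1, among the Ctrl hearts (-0.04 to 0.09) and away from the other Doxo hearts (0.41 to 1.46). Chronic Ctrl heart 1 was the highest Ctrl heart for 31 of 34 members. Atrial tissue, read from Myl4 at 100 CPM or more, was high in 8 of 14 Ctrl, 5 of 13 Doxo and 4 of 13 Doxo-NMN acute hearts and in no chronic heart. Acute Doxo heart 13 (88.1 CPM) and chronic Doxo-NMN heart 4 (88.3 CPM) lay just under this limit and were classed as low. Several results that rest on acute Doxo hearts 5 and 6 or chronic Ctrl heart 1 are given with and without them. For some others the range over fits that each left out 1 heart is given. The calls lost within a Myl4 class are counted after the comparisons.

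Baseline levels set the scale for what follows. Per kilobase of exon, acute Ctrl hearts expressed 3 of the 5 class I genes most, with B2m, the invariant light chain, at 147 ± 23.7 CPM per kb (mean ± SD, n = 14). The heavy chains followed at 58.6 ± 8.13 for H2-D1 and 37.8 ± 6.29 CPM per kb for H2-K1. Ifi27l2a, a small interferon-induced protein, reached 33.1 ± 10.8 CPM per kb, which overlaps H2-K1 within its spread, and Bst2, the membrane tether that holds budding virus at the cell surface, 17.2 ± 2.12 CPM per kb. Gbp2 (6.11 ± 0.821), Irgm2 (6.01 ± 1.08), Igtp (5.95 ± 1.42) and Isg15 (5.48 ± 1.27 CPM per kb) were neighbours that did not differ beyond their SDs. At the bottom were Dhx58 (0.518 ± 0.111), Zbp1 (0.274 ± 0.129) and the chemokine Cxcl10 (0.1002 ± 0.05101 CPM per kb), the last with as few as 2 counts in a Ctrl heart. Igtp and Irgm2 overlap on chromosome 11 in the annotation (58199556 to 58207591 and 58199618 to 58222782, plus strand, GRCm38), and members of the Ifit, Oas, Gbp and H2 families are close copies, so their reads may be split or shared between them.

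The signal itself was sought in the ligands and receptors. None of the 21 interferon genes listed in the tables passed the filter, and the highest count in any heart was 4 in the acute study (Ifna9, in Doxo-NMN heart 10) and 3 in the chronic study (Ifnz, in Doxo-NMN heart 1). Of 6 receptor genes tested in acute Doxo vs. Ctrl, 1 was higher and 3 were lower at an adjusted p under 0.05, without a cutoff on size, where 34.8% of all tested genes were higher and 33.3% lower. The 2 chains of IFNAR gave log2 fold changes of 0.02 ± 0.05 (Ifnar1) and 0.04 ± 0.06 (Ifnar2) and did not pass. Ifnar1 ran from 21.03 to 28.2 CPM (median 25.9) in Ctrl and from 21.4 to 31.6 CPM (median 26.3) in Doxo hearts, and Ifnar2 from 13.3 to 16.5 CPM (median 14.8) and from 11.9 to 19.2 CPM (median 15.8), so that the groups overlap for both. Ifngr2, the signalling chain for interferon gamma, ran from 129.6 to 165 CPM (median 148) in Ctrl hearts, from 16.3 to 158 CPM (median 42.5) in Doxo hearts and from 58.1 to 136 CPM (median 112) in Doxo-NMN hearts. It fell in Doxo hearts (-1.45 ± 0.20, adjusted p = 1.09e-07) and rose again in Doxo-NMN vs. Doxo (1.04 ± 0.20, adjusted p = 7.86e-05), while its partner Ifngr1 fell by 0.27 ± 0.06 (adjusted p = 7.92e-05), from 49.3 to 57.1 CPM (median 53.4) in Ctrl and from 35.98 to 59.97 CPM (median 43.1) in Doxo hearts. The remaining receptor chains that passed were Il10rb (-0.31 ± 0.07, adjusted p = 2.81e-04) and Ifnlr1 (0.69 ± 0.14, adjusted p = 3.01e-05), chains of receptors for interleukin-10 family cytokines and interferon lambda. Il10rb ran from 57.4 to 75.1 CPM (median 67.7) in Ctrl and from 38.4 to 71.5 CPM (median 52.9) in Doxo hearts, and Ifnlr1 from 2.595 to 6.23 CPM (median 4.03) and from 4.55 to 12.04 CPM (median 6.88).

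Downstream of the receptors, 6 of 10 JAK-STAT genes and inhibitors were higher and 3 lower in Doxo hearts at an adjusted p under 0.05, against 34.8% and 33.3% of all tested genes. Socs3, a feedback inhibitor of STAT signalling, ran from 4.52 to 9.65 CPM (median 6.36) in Ctrl and from 4.59 to 456 CPM (median 68.5) in Doxo hearts, with a log2 fold change of 4.301 ± 0.46, adjusted p = 7.58e-10. Ptpn2, a phosphatase that damps JAK-STAT signalling, rose by 0.89 ± 0.14 (adjusted p = 4.35e-07). The members of this tier are described next.

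In acute Doxo vs. Ctrl some of the 34 members were called higher and others lower, as was also the case over all tested genes. With a 1.5-fold change or more, 8 rose and 4 fell, where 14.7% of all 14240 tested genes were called higher and 15.4% lower. Without the cutoff on size, 12 rose and 6 fell, against 34.8% and 33.3% of all genes, and limma voom with sample weights called 9 higher and 11 lower at this threshold. Of the 19 type I genes 6 rose (Ifit1, Ifit2, Ifit3, Irf7, Stat2 and Zbp1) and 3 fell (Oas1a, Bst2 and Ifi44) past both thresholds. The median log2 fold change was 0.01 for the type I genes, 0.02 for the GTPases, 0.24 for the antigen presentation genes and -0.00 for all tested genes.

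Stat2, the partner that makes the interferon complex specific to type I signals, ran from 18.2 to 25.3 CPM (median 21.4) in Ctrl hearts and from 14.1 to 138 CPM (median 30.2) in Doxo hearts. It rose by 1.01 ± 0.22, adjusted p = 9.73e-05, with 8 of 13 Doxo hearts above every Ctrl heart. Its highest value was that of Doxo heart 5, and the next was at 81.1 CPM. Over 40 fits that each left out 1 heart, Stat2 ran from 0.70 to 1.09, past the p threshold in each. Irf9, the DNA-binding subunit of the complex, gave 0.15 ± 0.12 and did not pass. Irf7, the factor that amplifies interferon-alpha production, ran from 6.78 to 13.5 CPM (median 8.17) in Ctrl and from 7.72 to 25.3 CPM (median 12.1) in Doxo hearts (0.68 ± 0.16, adjusted p = 4.15e-04). Its groups overlap, although 12 of 13 Doxo hearts were above the Ctrl median. Over 40 fits that each left out 1 heart, Irf7 ran from 0.57 to 0.73. It was past the p threshold in each, but its lowest value was under 1.5-fold.

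The IFIT genes, whose proteins hold back translation of viral RNA, rose together. They are neighbours on chromosome 19, from 34550694 to 34650009 (GRCm38). Ifit2 ran from 8.45 to 18.4 CPM (median 11.8) in Ctrl and from 14.7 to 41.6 CPM (median 23.7) in Doxo hearts, with 0.96 ± 0.15, adjusted p = 1.23e-06. All 13 Doxo hearts were above the Ctrl median and 10 were above every Ctrl heart. Ifit3 ran from 6.202 to 13.6 CPM (median 8.44) in Ctrl and from 4.87 to 29.8 CPM (median 13.3) in Doxo hearts (0.83 ± 0.22, adjusted p = 0.00131). Ifit1 ran from 3.73 to 8.09 CPM (median 5.28) in Ctrl and from 4.22 to 28.1 CPM (median 7.21) in Doxo hearts (0.75 ± 0.25, adjusted p = 0.00773). The highest Doxo value of all 3 was that of heart 5, and without it the call for Ifit1 was lost (0.47, adjusted p = 0.0518) while Ifit2 (0.85, adjusted p = 3.90e-06) and Ifit3 (0.70, adjusted p = 0.0051) stayed past the threshold.

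Among the sensors of foreign nucleic acid, Zbp1, which reads Z-form nucleic acid and can start necroptosis, ran from 0.404 to 2.08 CPM (median 0.964) in Ctrl and from 0.322 to 5.79 CPM (median 1.65) in Doxo hearts, a rise of 1.07 ± 0.32, adjusted p = 0.00386. The RNA helicases of the RIG-I family did not move together. Dhx58, the family member without a signalling domain, rose by 0.38 ± 0.15, adjusted p = 0.0245, from 1.14 to 2.45 CPM (median 1.65) in Ctrl and from 1.49 to 4.99 CPM (median 1.97) in Doxo hearts, and without Doxo heart 5 this was 0.22, adjusted p = 0.133. Ddx58, which encodes RIG-I itself, fell by 0.29 ± 0.11, adjusted p = 0.0215, from 10.4 to 15.7 CPM (median 13.8) in Ctrl and from 7.36 to 20.4 CPM (median 10.4) in Doxo hearts, and Ifih1, which encodes MDA5, gave 0.01 ± 0.11 and did not pass. Both changes that passed are under the 1.5-fold cutoff. Xaf1, a proapoptotic interferon target, gave 0.14 ± 0.15 and did not pass.

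Several antiviral effectors were lower in Doxo hearts. Bst2 ran from 12.8 to 20.3 CPM (median 15.3) in Ctrl hearts and from 4.58 to 16.1 CPM (median 7.84) in Doxo hearts, and fell by 0.75 ± 0.15, adjusted p = 5.68e-05. Of 13 Doxo hearts, 11 were below every Ctrl heart. Oas1a, whose enzyme makes the oligoadenylates that activate RNase L, ran from 1.67 to 3.37 CPM (median 2.17) in Ctrl and from 0.557 to 3.59 CPM (median 1.01) in Doxo hearts (-0.73 ± 0.21, adjusted p = 0.00196), with 10 Doxo hearts below every Ctrl heart. Rsad2, the radical enzyme viperin, ran from 11.3 to 37.5 CPM (median 22.2) in Ctrl and from 4.39 to 39.3 CPM (median 14.4) in Doxo hearts (-0.57 ± 0.19, adjusted p = 0.00798), which is past the p threshold but under 1.5-fold. Ifi44, a negative regulator of interferon responses, ran from 2.39 to 7.21 CPM (median 3.85) in Ctrl and from 1.07 to 5.56 CPM (median 2.17) in Doxo hearts (-0.65 ± 0.25, adjusted p = 0.0213). The Bst2 and Oas1a promoters shown above hold the same element as those of Ifit1 and Ifit3, which went the other way.

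Isg15, the ubiquitin-like modifier often used to mark an interferon response, ran from 2.79 to 6.36 CPM (median 3.999) in Ctrl and from 1.43 to 7.41 CPM (median 2.29) in Doxo hearts. Its log2 fold change of -0.44 ± 0.23, adjusted p = 0.0851, did not pass, although 10 of 13 Doxo hearts were below the Ctrl median. Without Doxo heart 5, the highest of its group at 7.41 CPM, it was -0.62, adjusted p = 0.0102, which passed. Usp18 (-0.14 ± 0.16), the enzyme that removes Isg15 from proteins and damps IFNAR, Oasl2 (-0.13 ± 0.24) and Ifi27l2a (-0.21 ± 0.24) did not pass in this comparison.

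**Figure D1:**
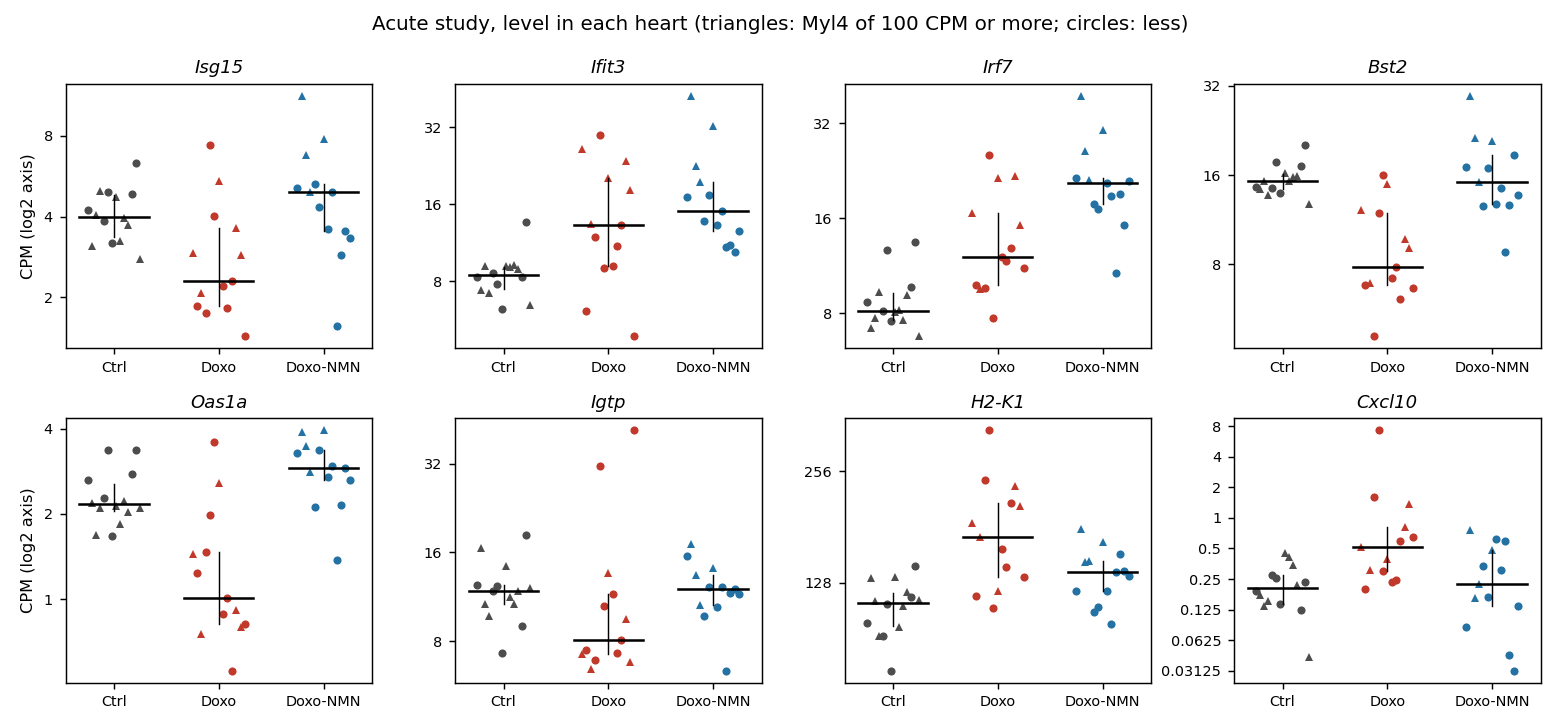
Level of 8 members in each acute heart, in CPM on a log2 axis, for Ctrl, Doxo and Doxo-NMN, with the line at the median, the bar over the interquartile range, triangles for hearts with at least 100 CPM of Myl4 and circles for the others. Doxo values spread more widely than Ctrl values, Bst2 and Oas1a sit lower in most Doxo hearts, Ifit3, Irf7 and H2-K1 sit higher, and Cxcl10 reaches 7.25 CPM in Doxo heart 5 (the Doxo-NMN heart with no Cxcl10 count is drawn at the bottom of its panel).

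Of the GTPases only Gbp4 passed both thresholds in acute Doxo vs. Ctrl by edgeR, while limma voom with sample weights called 4 of 8 lower and 1 higher at an adjusted p under 0.05. The Doxo median was below the Ctrl median for 7 of the 8, with ratios of the medians from 0.483 for Gbp4 to 0.993 for Gbp3, and above it for Irgm1 (1.201). Gbp4, a guanylate-binding protein, ran from 10.2 to 27.9 CPM (median 16.4) in Ctrl and from 1.604 to 29.7 CPM (median 7.94) in Doxo hearts, and fell by 0.83 ± 0.25, adjusted p = 0.00387. In Doxo hearts it reached both below and above the Ctrl range, with 10 of 13 hearts below every Ctrl heart. Irgm1, which regulates the other immunity-related GTPases, ran from 14.8 to 21.2 CPM (median 17.1) in Ctrl and from 14.4 to 40.9 CPM (median 20.5) in Doxo hearts (0.27 ± 0.10, adjusted p = 0.0123), and without Doxo heart 5 it was 0.15, adjusted p = 0.0621.

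Igtp ran from 7.26 to 18.3 CPM (median 11.8) in Ctrl and from 6.44 to 41.5 CPM (median 8.06) in Doxo hearts, and its log2 fold change was 0.11 ± 0.23, adjusted p = 0.692. Its Doxo median was lower than the Ctrl median while 2 Doxo hearts, 13 and 5, were above all Ctrl hearts, and the overlapping Irgm2 had its highest Doxo values in the same hearts. Heart 13 was at the same time the lowest Doxo heart for 10 members, 7 of them type I genes. Gbp2 ran from 11.9 to 19.98 CPM (median 15.3) in Ctrl and from 4.45 to 34.3 CPM (median 11.96) in Doxo hearts (-0.45 ± 0.23, adjusted p = 0.0836). Heart 5 decided whether Gbp2 and Gbp7 passed the p threshold. Without it Gbp2 was -0.72, adjusted p = 0.00165, past both thresholds. Gbp7 was then -0.51, adjusted p = 0.00484, which is under 1.5-fold, whereas with heart 5 it was -0.29 ± 0.19. The remaining GTPases, Gbp3 (0.08 ± 0.23), Gbp5 (0.23 ± 0.24) and Irgm2 (-0.04 ± 0.19), did not pass.

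Among the antigen presentation genes H2-K1 rose in acute Doxo hearts and B2m, the chain it pairs with, gave no detectable change. H2-K1, a class I heavy chain, ran from 74.2 to 142 CPM (median 113) in Ctrl and from 109.6 to 329.6 CPM (median 170.1) in Doxo hearts (0.71 ± 0.13, adjusted p = 7.30e-06), with 8 of 13 Doxo hearts above every Ctrl heart. H2-D1, the other classical heavy chain of this strain, ran from 112 to 196 CPM (median 150.3) in Ctrl and from 109.6 to 294 CPM (median 165) in Doxo hearts (0.24 ± 0.11, adjusted p = 0.0488). This call was weak, being lost in 24 of 40 fits that each left out 1 heart, over which its log2 fold change ran from 0.15 to 0.27, and it was 0.15, adjusted p = 0.177, without Doxo heart 5. B2m ran from 92.1 to 159 CPM (median 125) in Ctrl and from 87.2 to 215 CPM (median 125) in Doxo hearts, with a 95% interval of its log2 fold change from -0.20 to 0.23. Tap1, a chain of the peptide transporter, ran from 6.39 to 13.9 CPM (median 8.75) in Ctrl and from 5.45 to 35.9 CPM (median 10.2) in Doxo hearts (0.49 ± 0.18, adjusted p = 0.015), and lost its call without Doxo heart 5 (0.24, adjusted p = 0.117), while its partner chain Tap2 gave -0.00 ± 0.07.

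Irf1 and Cxcl10, both targets of interferon gamma, differed from each other. Irf1, the transcription factor upstream of the GTPases, ran from 15.4 to 21.1 CPM (median 17.5) in Ctrl and from 9.29 to 42.3 CPM (median 16.6) in Doxo hearts, with -0.01 ± 0.14, which did not pass. Its Doxo hearts reached both below and above the Ctrl range. Cxcl10, which draws in T cells, ran from 0.0429 to 0.453 CPM (median 0.205) in Ctrl and from 0.198 to 7.25 CPM (median 0.513) in Doxo hearts, the largest log2 fold change of the 34 members in this comparison (2.28 ± 0.50, adjusted p = 1.44e-04). The highest heart was Doxo heart 5 and the next was at 1.61 CPM, and without heart 5 the value was 1.38, adjusted p = 0.00304. Most Cxcl10 levels rest on few counts, from 2 to 18 in the Ctrl hearts and from 8 upward in the Doxo hearts. With acute counts divided by 2, Cxcl10 did not pass the filter on low counts and was not tested in the acute comparisons.

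Heart 6, which lies among the Ctrl hearts over all genes, also entered these values. Without it Bst2 was -0.84, adjusted p = 4.97e-06, Ifit2 was 1.001, adjusted p = 3.41e-07, and H2-K1 was 0.76, adjusted p = 1.22e-06, each at least as far from 0 as with it. With both hearts 5 and 6 left out, 7 members in place of 4 were called lower, and with heart 5 alone left out also 7.

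Markers of blood and immune cells also differed between the acute hearts. Summed erythroid markers (Alas2, Hba-a1 and Hbb-bs) ran from 339 to 3370.2 CPM (median 868) in Ctrl, from 0.875 to 262 CPM (median 1.701) in Doxo and from 0.209 to 2.37 CPM (median 1.16) in Doxo-NMN hearts, and the Doxo heart at the top of its range was heart 6. Summed neutrophil markers (6 genes) ran from 1.701 to 5.14 CPM (median 2.59) in Ctrl, from 3.14 to 264 CPM (median 16.3) in Doxo and from 4.81 to 30.3 CPM (median 9.65) in Doxo-NMN hearts. Summed B cell markers (4 genes) ran from 0.482 to 2.23 CPM (median 1.15) in Ctrl and from 0.113 to 2.52 CPM (median 0.3605) in Doxo hearts, and macrophage markers (8 genes) from 163 to 235 CPM (median 202) and from 99.9 to 251 CPM (median 167). Ptprc, which marks all leukocytes, ran from 6.04 to 11.3 CPM (median 8.31) in Ctrl and from 2.96 to 11.4 CPM (median 5.83) in Doxo hearts. The cardiomyocyte markers Myh6, Tnnt2, Tnni3, Actc1, Myl2 and Ryr2 were detected in every heart, summing to 26682 CPM or more, and Ly6g, which defines neutrophils, had a median count of 0 over the acute hearts. The part of these cells in the members' differences was not tested, and in whole heart RNA fewer cells of a type and less RNA per cell cannot be told apart.

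Other genes of the pathway were counted in acute Doxo vs. Ctrl at an adjusted p under 0.05, where 34.8% of all tested genes were higher and 33.3% lower. Of 41 other type I interferon genes 11 were higher and 11 lower, led by Mx2 (1.55 ± 0.23) and Ifi207 (1.15 ± 0.15) among the higher and Ifi203 (-1.42 ± 0.21) and Samd9l (-1.16 ± 0.16) among the lower, and in both directions this is a smaller share than over all genes. Of 15 sensors and adaptors 5 were higher and 6 lower, including Myd88 (0.80 ± 0.13) and Tbk1 (0.61 ± 0.08) upward and Mavs (-0.61 ± 0.11), the adaptor of the RIG-I family, downward. Of 10 other GTPases 4 were higher and 1 lower, with Gbp10 at 1.99 ± 0.19, Iigp1 at 1.24 ± 0.20 and Gbp6 at 1.12 ± 0.14.

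Of 24 other antigen presentation genes 15 were lower and 5 higher, against 33.3% and 34.8% of all tested genes. The class II genes H2-Aa (-3.16 ± 0.41), H2-Ab1 (-3.19 ± 0.42) and Cd74 (-2.85 ± 0.40), and Ciita (-2.404 ± 0.30), the factor that switches class II on, fell in the same comparison in which H2-K1 rose. Class II genes are expressed by B cells, dendritic cells and macrophages, whose summed markers are given above for B cells and macrophages, and for dendritic cells (5 genes) ran from 3.03 to 4.75 CPM (median 4.004) in Ctrl and from 3.601 to 8.19 CPM (median 5.45) in Doxo hearts.

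**Figure D2:**
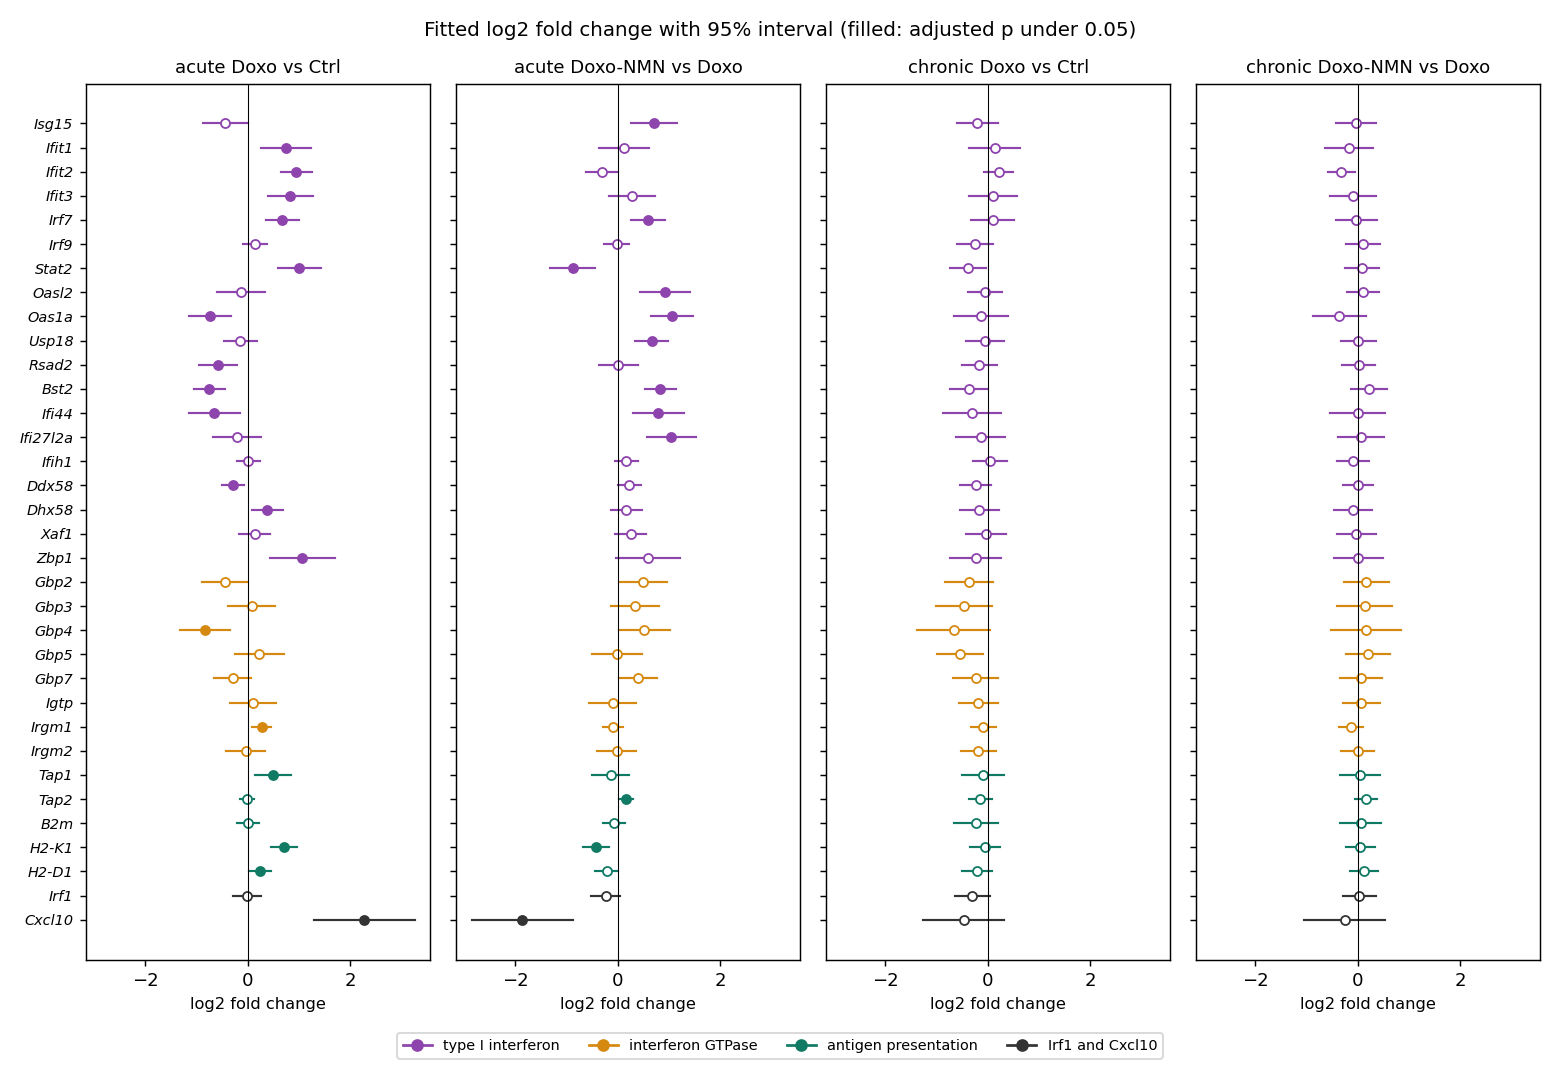
Log2 fold change of each of the 34 members with its 95% interval in 4 comparisons, with filled points at an adjusted p under 0.05. In acute Doxo vs. Ctrl 12 filled points lie to the right and 6 to the left, in acute Doxo-NMN vs. Doxo 9 lie to the right and 3 to the left, and in both chronic panels no point is filled.

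Acute Doxo-NMN vs. Doxo compares the surviving mice given the same dose of doxorubicin with and without NMN. It showed type I genes that rose and no GTPase past the threshold. Since survival differed between these groups, an effect of NMN on the heart and a difference in which mice survived cannot be told apart. With a 1.5-fold change or more, 8 of the 34 members rose and 2 fell, where 8.17% of all tested genes were called higher and 8.88% lower. Without the cutoff on size 9 rose and 3 fell, against 25.7% and 27.4% of all genes, and limma voom with sample weights called 17 higher and 4 lower. The 8 that rose past both thresholds are all type I genes (Isg15, Irf7, Oasl2, Oas1a, Usp18, Bst2, Ifi44 and Ifi27l2a), the 2 that fell were Stat2 and Cxcl10, and no GTPase passed by edgeR. Median log2 fold changes were 0.28 for type I genes, 0.16 for GTPases, -0.14 for antigen presentation genes and -0.00 for all tested genes.

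Oas1a ran from 1.37 to 3.95 CPM (median 2.91) in Doxo-NMN hearts, against a median of 1.01 CPM in Doxo hearts, and rose by 1.06 ± 0.21, adjusted p = 8.46e-05. Bst2 ran from 8.79 to 29.7 CPM (median 15.1) in Doxo-NMN hearts, with a median near the 15.3 CPM of Ctrl hearts, and rose by 0.84 ± 0.16, adjusted p = 4.41e-05. For Ifi44 the Doxo-NMN hearts ran from 1.84 to 9.44 CPM (median 3.79) (0.79 ± 0.25, adjusted p = 0.00859). These 3 members were lower in Doxo vs. Ctrl and higher in Doxo-NMN vs. Doxo, and since both comparisons use the same 13 Doxo hearts, the values are set side by side without a test of the pair.

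Other type I genes rose without having changed past the threshold in Doxo vs. Ctrl. Isg15 ran from 1.56 to 11.3 CPM (median 4.93) in Doxo-NMN hearts and rose by 0.72 ± 0.23, adjusted p = 0.00851, with 12 of 13 hearts above the Doxo median. Ifi27l2a ran from 8.804 to 23.5 CPM (median 14.97) in Ctrl, from 3.15 to 30.8 CPM (median 11.8) in Doxo and from 16.1 to 57.3 CPM (median 23.2) in Doxo-NMN hearts (1.05 ± 0.24, adjusted p = 4.69e-04). Oasl2, an Oas-like protein with ubiquitin-like domains, ran from 6.296 to 11.98 CPM (median 10.1), from 2.82 to 17.5 CPM (median 7.48) and from 5.43 to 35.7 CPM (median 14.5) in the same order (0.92 ± 0.25, adjusted p = 0.00205). The Doxo-NMN hearts were thus the highest of the 3 groups by median for each of Isg15, Ifi27l2a and Oasl2. Usp18 ran from 1.78 to 3.23 CPM (median 2.61), from 1.04 to 4.46 CPM (median 1.83) and from 1.94 to 5.75 CPM (median 3.58) (0.67 ± 0.17, adjusted p = 9.71e-04). Irf7 rose in both comparisons, with 10.8 to 39.2 CPM (median 20.7) in Doxo-NMN hearts (0.59 ± 0.17, adjusted p = 0.003).

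Stat2 and Cxcl10 went the other way. Stat2 ran from 15.9 to 29.9 CPM (median 22.8) in Doxo-NMN hearts and fell by 0.88 ± 0.22, adjusted p = 0.00111, its highest value there being below the Doxo median of 30.2 CPM. Over 40 fits that each left out 1 heart, Stat2 ran from -0.96 to -0.57. It was past the p threshold in each, but the value nearest 0 was under 1.5-fold. Cxcl10 ran from 0 to 0.753 CPM (median 0.222) in Doxo-NMN hearts and fell by 1.87 ± 0.50, adjusted p = 0.00209, and without Doxo heart 5 the value was -0.97, adjusted p = 0.0425. H2-K1 ran from 99.4 to 179 CPM (median 137) and fell by 0.42 ± 0.13, adjusted p = 0.00607, which is under 1.5-fold. Tap2 was higher by only 0.17 ± 0.07, adjusted p = 0.0362, from 13.001 to 23.3 CPM (median 15.5) in Doxo and from 15.96 to 21.6 CPM (median 17.6) in Doxo-NMN hearts, a call lost in 9 of 40 fits that each left out 1 heart, over which it ran from 0.15 to 0.23. Tap1 (-0.14 ± 0.18), B2m (-0.08 ± 0.11), H2-D1 (-0.22 ± 0.11) and Irf1 (-0.23 ± 0.14) did not pass.

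The GTPase result depended on 1 heart. With all hearts, no GTPase passed by edgeR (3 of 8 were at an unadjusted p under 0.05) or DESeq2, while limma voom with sample weights called 5 of 8 higher at an adjusted p under 0.05, with edgeR values for Gbp2 of 0.50 ± 0.23, adjusted p = 0.0687, and for Gbp4 of 0.52 ± 0.25, adjusted p = 0.0812. Without Doxo heart 5, the highest Doxo heart for 7 of the 8 GTPases, Gbp2 was 0.77, adjusted p = 0.0018, Gbp4 was 0.81, adjusted p = 0.00319, and Gbp7 was 0.60, adjusted p = 0.00226. The number of members called higher then went from 8 to 13, and the number called lower from 2 to 1. Cxcl10 stayed in the second count, while Stat2 left it, being past the p threshold but under 1.5-fold. The mean log2 CPM over the 8 GTPases was 5.23 in heart 5 and 3.89 in the next highest Doxo heart. Heart 5 also had the highest Ptprc level of the Doxo hearts (11.4 CPM), a neutrophil sum of 35.1 CPM and a macrophage sum of 167 CPM, near the Doxo median, and their part in its member levels was not tested.

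Of the other lists at an adjusted p under 0.05, 19 of 41 other type I interferon genes were higher and 6 lower in Doxo-NMN vs. Doxo, 1 of 10 other GTPases was higher and 1 lower, and 12 of 24 other antigen presentation genes were higher and 3 lower, where 25.7% of all tested genes were higher and 27.4% lower. The class II genes H2-Aa (1.01 ± 0.40), H2-Ab1 (1.08 ± 0.41) and Cd74 (0.95 ± 0.38) were among the higher, and Socs3 was lower (-3.74 ± 0.46). Erythroid markers were near 0 in both groups, apart from Doxo heart 6, and neutrophil markers summed to a median of 9.65 CPM with NMN against 16.3 CPM without, with no test of their part in the members.

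Acute Doxo-NMN vs. Ctrl, which shares its hearts with both comparisons above, left 7 members higher and none lower with a 1.5-fold change or more, where 3.31% of all tested genes were called higher and 3.79% lower. Without the cutoff on size 9 rose and 1 fell, against 15% and 11.1% of all genes, and all 10 are type I genes. With limma voom with sample weights 16 were higher, among them 3 GTPases and 2 antigen presentation genes, and 2 were lower, so that the restriction to type I genes holds for edgeR and DESeq2 (10 higher and 1 lower, all type I genes) only. Median log2 fold changes were 0.40 for type I genes, 0.08 for GTPases, 0.17 for antigen presentation genes and 0.01 for all tested genes. Irf7 rose by 1.27 ± 0.17, adjusted p = 7.65e-07, with 12 of 13 Doxo-NMN hearts above every Ctrl heart. Zbp1 ran from 0.951 to 6.97 CPM (median 2.47) in Doxo-NMN hearts (1.66 ± 0.32, adjusted p = 2.62e-04). The IFIT genes stayed higher than in Ctrl, with Ifit3 at 1.11 ± 0.22, adjusted p = 3.77e-04, Ifit1 at 0.87 ± 0.25 and Ifit2 at 0.65 ± 0.15. In Doxo-NMN hearts Ifit3 ran from 10.4 to 42.6 CPM (median 15.1), Ifit1 from 4.73 to 21.2 CPM (median 8.66) and Ifit2 from 13.05 to 45.2 CPM (median 18.3), and none of these 3 passed in Doxo-NMN vs. Doxo (0.28, 0.12 and -0.31). The other members higher were Ifi27l2a (0.84 ± 0.24, adjusted p = 0.00758), Oasl2 (0.80 ± 0.24, adjusted p = 0.0132), and, under 1.5-fold, Dhx58 (0.55 ± 0.15) and Usp18 (0.53 ± 0.16). Rsad2, the member that was lower, ran from 11.4 to 18.9 CPM (median 15.5) in Doxo-NMN hearts (-0.56 ± 0.19, adjusted p = 0.0272), and without Ctrl heart 13, its highest Ctrl heart, it was -0.49, adjusted p = 0.054.

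Within the Doxo-NMN group type I genes were higher in the hearts with atrial tissue. In that group 8 of the 19 type I genes were higher in the 4 hearts with high Myl4 than in the 9 with low Myl4 at an adjusted p under 0.05, and no GTPase, antigen presentation gene, Irf1 or Cxcl10 passed by edgeR, where 5.53% of all tested genes were called higher and 2.67% lower. Ifit3 ran from 19.5 to 42.6 CPM (median 27.5, n = 4) in the high and from 10.4 to 17.3 CPM (median 13.3, n = 9) in the low hearts, with a log2 difference of 1.11, adjusted p = 0.00473. Oasl2 ran from 17.5 to 35.7 CPM (median 27.4, n = 4) and from 5.43 to 16.2 CPM (median 13.3, n = 9) (1.14, adjusted p = 0.00894). Ifi27l2a ran from 28.003 to 57.3 CPM (median 41.9, n = 4) and from 16.1 to 26.5 CPM (median 20.6, n = 9) (1.01, adjusted p = 0.00889). The other 5 were Isg15 (0.996, adjusted p = 0.0299), Ifit1 (1.12, adjusted p = 0.0225), Irf7 (0.69, adjusted p = 0.0322), Ifi44 (1.17, adjusted p = 0.0125) and Ifih1 (0.53, adjusted p = 0.0226). In each of these the high hearts sat above the low hearts by median. At an unadjusted p under 0.05 were 13 of the 19 type I genes and 4 of the 8 GTPases, with Gbp2 at 0.94, adjusted p = 0.0597, and Gbp3 at 0.77, adjusted p = 0.164, so the data do not set the type I genes apart from the GTPases here.

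Within Ctrl hearts only Ifi27l2a passed (0.83, adjusted p = 0.025), against 6.65% of genes called higher and 2.38% lower, and within Doxo hearts Ifi27l2a (0.86, adjusted p = 0.0174) and Ifit3 (0.79, adjusted p = 0.031), against 7.62% and 6.85%. The difference of the atrial contrast between groups was tested directly and no member passed, either for Doxo minus Ctrl, where 0.0066% of genes were called higher and 0.0528% lower, or for Doxo-NMN minus Ctrl, where 0% were called in either direction (at an unadjusted p under 0.05, 2 of the 34 members for the first and 15 for the second, in edgeR). As mean log2 CPM over the 19 type I genes, Doxo-NMN hearts were at 3.72 ± 0.32 (SD, n = 4) with high and at 3.05 ± 0.24 (SD, n = 9) with low Myl4, Doxo hearts at 3.03 ± 0.31 (n = 5) and 2.66 ± 0.56 (n = 8), and Ctrl hearts at 2.78 ± 0.11 (n = 8) and 2.88 ± 0.25 (n = 6). Counts of calls depended on it, since with the low hearts alone 2 members were called higher in Doxo-NMN vs. Ctrl and with the high hearts alone 17, in place of 7.

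With all hearts and Myl4 class as a term in the fit, all 40 acute calls at an adjusted p under 0.05 were kept. That fit takes the difference between the classes as the same in every group. Many of these calls were lost when the comparisons were made inside 1 Myl4 class, with fewer hearts. With the low hearts alone 19 of 40 calls were lost, namely 9 of 18 in Doxo vs. Ctrl (Ifit1, Ifit3, Irf7, Ddx58, Dhx58, Zbp1, Irgm1, Tap1 and H2-D1), 3 of 12 in Doxo-NMN vs. Doxo (Isg15, Ifi44 and Tap2) and 7 of 10 in Doxo-NMN vs. Ctrl. In the last comparison Ifit3 was at 0.61, adjusted p = 0.161, Zbp1 was at 1.22, adjusted p = 0.112, Oasl2 was at 0.53, adjusted p = 0.273, Ifit1 was at 0.29, adjusted p = 0.627, and Ifit2 was at 0.44, adjusted p = 0.275, with Usp18 and Dhx58 also lost, while Irf7, Ifi27l2a and Rsad2 passed. With the high hearts alone 8 of 40 were lost, namely Ifi44, Ddx58 and Dhx58 in Doxo vs. Ctrl, Stat2, Tap2, H2-K1 and Cxcl10 in Doxo-NMN vs. Doxo and Rsad2 in Doxo-NMN vs. Ctrl.

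Other calls held in both classes. In Doxo vs. Ctrl, Bst2 was at -0.97, adjusted p = 8.30e-04, in the low hearts and -0.48, adjusted p = 0.0137, in the high hearts. Oas1a was at -0.90, adjusted p = 0.0161, in the low hearts and -0.63, adjusted p = 0.026, in the high hearts. H2-K1 was at 0.74, adjusted p = 0.00394, in the low hearts and 0.69, adjusted p = 9.66e-05, in the high hearts. Ifit2 was at 0.69, adjusted p = 0.0273, in the low hearts and 1.21, adjusted p = 1.10e-07, in the high hearts, whereas Irf7 was at 0.30, adjusted p = 0.226, in the low hearts and 1.09, adjusted p = 2.30e-05, in the high hearts. In Doxo-NMN vs. Doxo, Oasl2 was at 0.82, adjusted p = 0.0236, in the low hearts and 1.18, adjusted p = 0.00147, in the high hearts, and Oas1a at 0.85, adjusted p = 0.0199, in the low hearts and 1.43, adjusted p = 8.97e-04, in the high hearts, whereas Isg15 was at 0.44, adjusted p = 0.222, in the low hearts and 1.17, adjusted p = 0.00193, in the high hearts. Whether the classes differ in these fold changes was not tested.

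**Figure D3:**
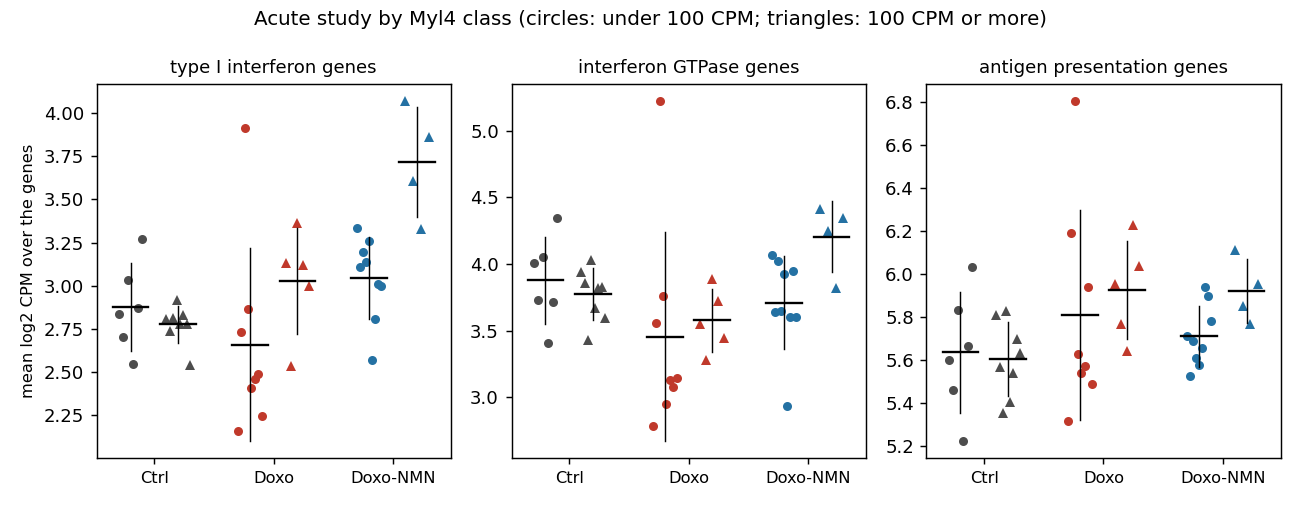
Mean log2 CPM over the type I, GTPase and antigen presentation genes in each acute heart, by group and by Myl4 class, with the line at the mean and the bar over 1 SD. For the type I genes the 4 Doxo-NMN hearts with high Myl4 average 3.72 and the 9 with low Myl4 average 3.05, and the highest GTPase value is that of Doxo heart 5 at 5.23.

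Variation from heart to heart within a group was described for 5 pairs of members, which the group comparisons did not use. Correlations of log2 CPM were computed in each of the 3 acute groups (15 in all, permutation tests with 100000 resamples, adjusted over the 15). Isg15 and Irf7, both type I genes, gave Pearson's r = 0.83 in Ctrl hearts (n = 14, permutation p = 7e-05, adjusted p = 0.000525, Spearman's rho = 0.82, and r = 0.67 without the 2 hearts farthest from the median of Isg15). In Doxo-NMN hearts they gave r = 0.90 (n = 13, permutation p = 0.00017, adjusted p = 0.00085, rho = 0.73, and r = 0.68 without the 2 farthest). In Doxo hearts r was 0.69 (n = 13, permutation p = 0.00907, adjusted p = 0.0194, rho = 0.60) and fell to 0.34 without the 2 farthest hearts, so that it rests on those hearts. B2m and H2-K1 gave r = 0.93 in Ctrl hearts (n = 14, permutation p = 1e-05, the smallest these permutations can give, adjusted p = 0.00015, rho = 0.93, and r = 0.89 without the 2 farthest) and r = 0.80 in Doxo hearts (n = 13, permutation p = 0.00112, adjusted p = 0.00335, rho = 0.69, and r = 0.61 without the 2 farthest). In Doxo-NMN hearts this pair gave r = 0.54 (n = 13, permutation p = 0.0569, adjusted p = 0.0854, rho = 0.59), which did not pass, and r = 0.12 without the 2 farthest.

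The remaining pairs each joined Igtp to a gene outside the GTPases. Isg15 and Igtp gave r = 0.26 in Ctrl (n = 14, permutation p = 0.373, rho = 0.09) and 0.27 in Doxo hearts (n = 13, permutation p = 0.374, adjusted p = 0.401, rho = 0.30), which became -0.32 without the 2 farthest. In Doxo-NMN hearts they gave r = 0.82 (permutation p = 0.00134, adjusted p = 0.00335, rho = 0.63, and 0.44 without the 2 farthest). Igtp and H2-K1 gave r = 0.78 in Ctrl hearts (permutation p = 0.00118, adjusted p = 0.00335, rho = 0.60, and 0.50 without the 2 farthest) but r = 0.06 in Doxo and 0.29 in Doxo-NMN hearts. Igtp and Irf1 gave r = 0.63 in Ctrl (adjusted permutation p = 0.0295, rho = 0.60, and 0.47 without the 2 farthest), 0.38 in Doxo and 0.63 in Doxo-NMN hearts (adjusted permutation p = 0.0665, rho = 0.66, and 0.20 without the 2 farthest). For rho, the adjusted permutation p was 0.0529 for Igtp with Irf1 and with H2-K1 in Ctrl and for Isg15 with Igtp in Doxo-NMN hearts. It was 0.0534 for Isg15 with Irf7 in Doxo hearts. These passed by Pearson's r only. Whether r differs between groups was not tested.

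The same correlations were computed within each Myl4 class of at least 6 hearts, which leaves out the 5 Doxo and 4 Doxo-NMN hearts with high Myl4 as too few. For Isg15 and Irf7 r was 0.92 in the 6 low and 0.67 in the 8 high Ctrl hearts, 0.59 in the 8 low Doxo hearts and 0.71 in the 9 low Doxo-NMN hearts. For B2m and H2-K1 it was 0.99 in the 6 low and 0.94 in the 8 high Ctrl hearts, 0.77 in the 8 low Doxo hearts and -0.04 in the 9 low Doxo-NMN hearts. For Isg15 and Igtp it was 0.80 in the 6 low and -0.35 in the 8 high Ctrl hearts, 0.32 in the 8 low Doxo hearts and 0.76 in the 9 low Doxo-NMN hearts, so that in Ctrl hearts the sign differed between the classes. For Igtp and H2-K1 it was 0.76 in the 6 low and 0.82 in the 8 high Ctrl hearts, 0.20 in the 8 low Doxo hearts and -0.19 in the 9 low Doxo-NMN hearts, and for Igtp and Irf1 0.84 in the 6 low and 0.30 in the 8 high Ctrl hearts, 0.37 in the 8 low Doxo hearts and 0.75 in the 9 low Doxo-NMN hearts. These values rest on 6 to 9 hearts each and are given without a test.

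In the chronic study, 60 days after the first of the repeated low doses, no member passed in any comparison. In Doxo vs. Ctrl 0.0602% of all 14960 tested genes were called, in Doxo-NMN vs. Doxo 0% and in Doxo-NMN vs. Ctrl 0.0401%. At an unadjusted p under 0.05 edgeR gave 2 members in Doxo vs. Ctrl, 1 in Doxo-NMN vs. Doxo and none in Doxo-NMN vs. Ctrl, and the smallest adjusted p was 0.602. DESeq2 and limma voom with sample weights also called none of the 34 in any of these comparisons. The median SE of the log2 fold changes was 0.20, 0.19 and 0.20 in these comparisons. The 95% interval lay within a 2-fold change for 31, 33 and 31 of the 34 members.

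In chronic Doxo vs. Ctrl most values were on the lower side, with 29 of 34 members below 0 and a median log2 fold change of -0.18, against -0.00 for all tested genes. Medians were -0.14 for type I genes, -0.30 for GTPases and -0.15 for antigen presentation genes. Without Ctrl heart 1, 21 of 34 members were below 0, with a median of -0.01, and no member passed. For the type I genes the direction rested on that heart, since without it 8 of 19 were below 0 and their median was 0.07. All 8 GTPases stayed below 0 (median -0.11), as did Irf1 and Cxcl10 and 3 of 5 antigen presentation genes. Of all 15090 genes tested in that fit, 7200 were below 0. Chronic Doxo heart 2 was the lowest Doxo heart for 6 of the 8 GTPases, and their direction without it is not given. With all hearts, ratios of the Doxo to the Ctrl median ran from 0.824 for Gbp5 to 1.061 for Gbp7. Ctrl heart 1 was the highest for 18 of the 19 type I genes, 7 of the 8 GTPases and all 5 antigen presentation genes. H2-K1, for example, was at 340.03, 203, 184, 208 and 198 CPM in the 5 Ctrl hearts, from 162 to 262 CPM (median 234) in the Doxo and from 205 to 259 CPM (median 220.4) in the Doxo-NMN hearts, and only Ctrl heart 1 was above the Doxo range. It also had the highest Ptprc (10.1 CPM, other Ctrl hearts up to 7.07) and endothelial marker sum (1389.8 CPM, other Ctrl hearts up to 1107) of the Ctrl hearts, and the part of these in the members' levels was not tested. Igtp was at 18.03, 14.9, 12.6, 9.04 and 9.22 CPM in Ctrl, from 7.11 to 13.7 CPM (median 12.4) in Doxo and from 9.68 to 14.97 CPM (median 11.6) in Doxo-NMN hearts.

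Isg15 was at 5.99, 3.92, 4.27, 3.14 and 3.51 CPM in the 5 chronic Ctrl hearts, from 2.15 to 4.72 CPM (median 3.81) in Doxo and from 2.72 to 4.34 CPM (median 3.61) in Doxo-NMN hearts. Irf7 was at 20.04, 13.6, 11.5, 9.57 and 8.15 CPM in Ctrl, from 8.54 to 18.8 CPM (median 13.4) in Doxo and from 10.5 to 18.4 CPM (median 11.7) in Doxo-NMN hearts. Ifit3 was at 11.2, 10.2, 7.404, 5.53 and 5.43 CPM in Ctrl, from 4.57 to 15.3 CPM (median 7.74) in Doxo and from 6.37 to 10.1 CPM (median 8.12) in Doxo-NMN hearts. The groups of all 3 genes overlap throughout. Their log2 fold changes in Doxo vs. Ctrl were -0.21 ± 0.20 for Isg15, 0.09 ± 0.21 for Irf7 and 0.11 ± 0.24 for Ifit3. Cxcl10 was at 0.381, 0.484, 0.944, 0.851 and 0.396 CPM in Ctrl and from 0.286 to 0.738 CPM (median 0.364) in Doxo hearts, which is 7 to 19 and 5 to 15 counts. Bst2 was at 51.2, 22.1, 24.5, 27.1 and 24.2 CPM in Ctrl and from 17.6 to 27.5 CPM (median 24.7) in Doxo hearts (-0.36 ± 0.19), and Oas1a at 4.74, 1.84, 2.63, 2.02 and 2.15 CPM in Ctrl and from 0.862 to 3.39 CPM (median 2.63) in Doxo hearts (-0.13 ± 0.27).

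**Figure D4:**
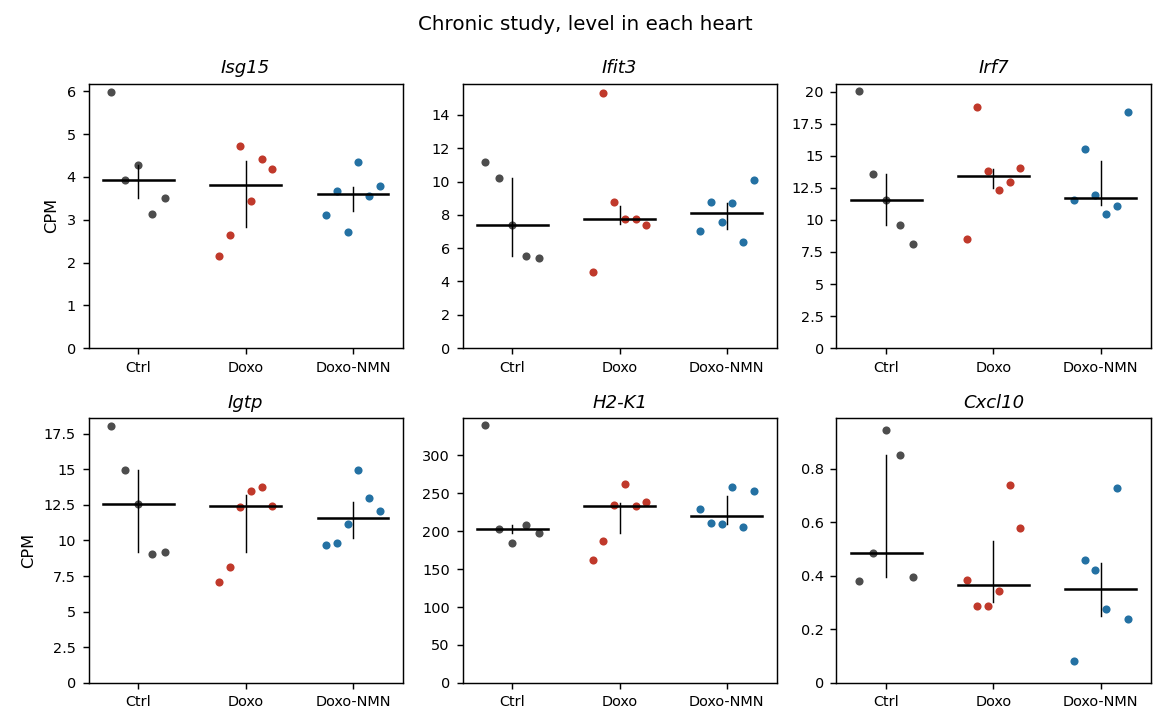
Level of 6 members in each chronic heart, in CPM on linear axes from 0, with the line at the median and the bar over the interquartile range. The groups overlap for every gene, and the highest H2-K1, Igtp, Isg15 and Irf7 values are those of Ctrl heart 1, at 340.03, 18.03, 5.99 and 20.04 CPM.

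The effects of the 2 regimens were compared directly, as the acute minus the chronic log2 fold change in a fit over both studies. Dose schedule, time, age, supplier of the mice, vehicle and sequencing site differ together between the studies and cannot be told apart. For Doxo vs. Ctrl 4 members differed, all with the larger value in the acute study, where 23.6% of all tested genes differed. Cxcl10 differed by 2.75 ± 0.86, adjusted p = 0.018, Stat2 by 1.397 ± 0.36, adjusted p = 0.00575, H2-K1 by 0.75 ± 0.22, adjusted p = 0.012 and Ifit2 by 0.74 ± 0.26, adjusted p = 0.0356. Single hearts decided some of these calls. Without acute Doxo heart 5, Ifit2 was 0.65, adjusted p = 0.0555, and Cxcl10 was 1.86, adjusted p = 0.05, just short of the threshold, so that 2 of 4 remained past it. Without chronic Ctrl heart 1, Ifit2 was 0.68, adjusted p = 0.0712, and H2-K1 was 0.56, adjusted p = 0.0635, and again 2 remained. Stat2 passed in both fits, at 1.100, adjusted p = 0.00703, and 1.15, adjusted p = 0.0259.

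For Doxo-NMN vs. Doxo 1 member, Oas1a, differed between the studies (1.42 ± 0.37, adjusted p = 0.0214), where 6.09% of all tested genes did. It had risen by 1.06 ± 0.21 in the acute study and was at -0.36 ± 0.26 in the chronic study. The dose and route of NMN also differed between the studies. Neither Isg15 (0.75 ± 0.38, adjusted p = 0.193) nor any GTPase or antigen presentation gene passed in this contrast.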

How the data were processed

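Whole hearts were sequenced from poly(A) RNA in 57 libraries. The deposited values are the authors' counts of reads per gene, whole numbers without normalization, made with STAR and featureCounts on mm10 (versions 2.7.3a and 2.0.0 in the submitters' processing notes, while the methods name another STAR version). Of counts from 1 to 20, a median of 73.6% were even in acute and 40.3% in chronic hearts, so that each acute fragment may have been counted as 2 reads, and acute counts divided by 2 were tried as an alternative. The methods name different sequencing sites for the studies, so study and site cannot be told apart.

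Tests were run with edgeR 4.0.16 under R 4.3.3 (filterByExpr by group, TMM, quasi-likelihood F-test, the 3 groups of a study fitted together), adjusted by Benjamini-Hochberg over all tested genes. The study's methods name edgeR and TMM, and the acute thresholds are those given with its results. Acute minus chronic effects were tested in a single fit of both studies. Alternatives used limma 3.58.1, DESeq2 1.42.0, RLE factors, other filters and cutoffs, the replicate number as a block, and each heart left out in turn. Fits without acute Doxo hearts 5 and 6, with atrial class as a term, of high against low Myl4, and of the acute minus chronic effects without 1 heart were added after seeing the data. Mean log2 CPM used a prior count of 2. Other values came from Python 3.11.15 with numpy 2.4.6, pandas 2.3.3, scipy 1.17.1 and matplotlib 3.10.9. The tests were tested on simulated data first. No libraries were duplicates (lowest chi-square per gene 10.4 and 5.49).

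The members and lists were chosen with earlier results of these data known. Per-heart values are given for members past adjusted p 0.05 in any comparison or anchoring a group, and from other lists for every receptor measured and fold changes for at most 4 genes per list with the smallest adjusted p in acute Doxo vs. Ctrl, while 1 item that this rule names is not reported here. Positions are from GENCODE on GRCm38.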

Additional observations from a re-analysis of the deposited data

Results flagged for a closer look

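Of 102 combinations of a member and a chronic group in which 1 heart could be compared with the rest, 13 had a heart far from the others by Dixon's criterion, which chance alone would meet about 1 time in 20. Chronic Ctrl heart 1 was the distant heart in 8 of the 13, always as the highest. Its levels were 59.1 CPM for Stat2 (next heart 34.3), 51.2 for Bst2 (next 27.1), 18.7 for Ifi27l2a (next 9.79), 34.1 for Gbp3 (next 15.3), 42.5 for Tap2 (next 28.8), 265 for B2m (next 162), 340.0 for H2-K1 (next 208) and 481 CPM for H2-D1 (next 307). Chronic Doxo heart 2 was the lowest of its group for Oas1a at 0.862 CPM (next 2.37) and for Gbp2 at 4.37 CPM (next 11.2). Irgm1 was lowest in chronic Doxo heart 1 at 13.3 CPM (next 18.9) and highest in chronic Doxo-NMN heart 4 at 20.9 CPM (next 16.3), and Tap2 was highest in chronic Doxo-NMN heart 6 at 36.4 CPM (next 30.3). The 13 are not independent, because members vary together within a heart.

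The effect of Doxo differed between the acute and the chronic study for Ifit2 (log2 difference 0.74, edgeR adjusted p = 0.0356), Stat2 (1.397, adjusted p = 0.00575), H2-K1 (0.75, adjusted p = 0.012) and Cxcl10 (2.75, adjusted p = 0.018), and the effect of NMN for Oas1a (1.42, adjusted p = 0.0214). For Stat2 and H2-K1 the chronic Ctrl heart 1 named above enters the contrast. Without it Stat2 was 1.15, adjusted p = 0.0259, and H2-K1 was 0.56, adjusted p = 0.0635. No cause of these differences was tested.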

How the results depend on the processing

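Of 45 calls for single members, 40 were refitted with each heart of their study left out in turn, and 33 of these 40 held in every such fit. The other 5, the acute minus chronic calls, were refitted without only 3 single hearts and are not counted in the 33. Under every other alternative in which they were tested 19 of the 45 held, and none changed direction. Cxcl10 in acute Doxo vs. Ctrl is among the 19, but was tested in 11 of these alternatives where other acute calls were tested in 13. Members called higher and lower in acute Doxo vs. Ctrl (8 and 4) ranged over 6 to 8 and 3 to 7 when 1 heart was left out, in Doxo-NMN vs. Doxo (8 and 2) over 6 to 13 and 1 to 2, and in Doxo-NMN vs. Ctrl (7 and 0) over 7 to 8 and 0 to 1. A fold change of at least 2 left 3 higher and 0 lower in Doxo vs. Ctrl, 2 and 1 in Doxo-NMN vs. Doxo and 3 higher in Doxo-NMN vs. Ctrl. With limma voom 7 were lower in Doxo vs. Ctrl, and 13 higher and 1 lower in Doxo-NMN vs. Doxo. Low Myl4 hearts alone gave 4, 5 and 2 higher in the 3 comparisons and 1 lower in Doxo-NMN vs. Ctrl. High Myl4 hearts alone gave 2 lower in Doxo vs. Ctrl, 14 higher and 0 lower in Doxo-NMN vs. Doxo and 17 higher in Doxo-NMN vs. Ctrl. Without Doxo hearts 5 and 6, 7 were lower in Doxo vs. Ctrl and 13 higher in Doxo-NMN vs. Doxo. A minimum of 10 counts in every heart and acute counts divided by 2 each left 1 lower in Doxo-NMN vs. Doxo, and Cxcl10 was not tested in either. Dropping the fold cutoff and adding atrial class as a term each gave 1 lower in Doxo-NMN vs. Ctrl. For the acute minus chronic Doxo effect (4 higher, 0 lower) leaving out acute Doxo heart 5 or 6 or chronic Ctrl heart 1 gave 2 to 5 higher, and voom 7 lower. For the NMN effect (1 higher, 0 lower) it gave 1 to 2 higher and 0 to 1 lower, voom 15 higher and 1 lower, and fits of only the groups compared 0 higher. The causes were not tested, other than fewer hearts. Chronic counts were 0 in every fit, and no chronic heart had high Myl4.

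Whether replicate numbers pair the hearts could not be decided, because only same-numbered hearts were correlated and hearts with different numbers were not. Correlations over 0.1 were found in 3 of 13 pairs of acute Ctrl and Doxo hearts (median -0.14), 7 of 13 of Doxo and Doxo-NMN (0.12) and 8 of 13 of Ctrl and Doxo-NMN (0.26), and in the chronic study in 0 of 5 (-0.08), 2 of 6 (0.03) and 2 of 5 (0.09). With the replicate block 7 members were lower in acute Doxo vs. Ctrl and 1 in Doxo-NMN vs. Ctrl. Depth limits mainly Cxcl10, Zbp1 and Oas1a.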

Other observations

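Hearts at the ends of the range were often the same for many members, in the other groups too. Acute Ctrl heart 13 was the highest of its group for 22 of the 34 members, 12 of 19 type I genes, 6 of 8 GTPases and 4 of 5 antigen presentation genes among them. Acute Doxo-NMN heart 2 was the highest for 22 members, 14 of them type I genes, while Doxo-NMN heart 10 was the lowest for 21, including all 8 GTPases. Chronic Doxo heart 2 was the lowest of its group for 21 members, and its summed macrophage markers (121 CPM), Ptprc (2.01 CPM) and erythroid markers (12.9 CPM) were the lowest of the 6 Doxo hearts. Chronic Doxo-NMN heart 4 was the highest of its group for 21 members, including all 8 GTPases. Its Myl4 level, 88.3 CPM, was just under the limit for high Myl4, and the part of atrial tissue in its member levels was not tested.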
